A study of Mus musculus with 6 samples.

Results

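The 10 genes described here encode the gap junction channels and the adhesion complexes of the cardiac intercalated disc. They were chosen by name: 3 connexins (Gja1, Gja5 and Gjc1), the classical cadherin Cdh2, the desmosomal genes Dsg2, Dsp, Pkp2 and Jup, and the scaffold and catenin genes Tjp1 and Ctnna3. All 10 were found among the 27179 genes of the bulk count table and among the genes counted in single wells. The rule used no measured value, but earlier results of these data were known when the genes were chosen.

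At the intercalated disc, cardiac muscle cells are joined end to end. Gap junctions are channels built from connexins, through which ions pass from cell to cell, so that excitation spreads through the muscle. Adherens junctions and desmosomes hold the membranes together and anchor actin and intermediate filaments, and mutations of desmosomal genes are a known cause of arrhythmogenic cardiomyopathy.

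Immature cardiomyocytes (imCMs) from neonatal C57BL/6 mice were co-cultured with cardiac fibroblasts of the same strain, either neonatal (NFs) or adult (AFs), to ask how fibroblasts of different age affect cardiomyocyte maturation. Bulk RNA-Seq was performed on cardiomyocytes of both co-cultures, with 2 libraries of imCM-NF and 2 of imCM-AF. Single-cell RNA-Seq on a nanowell chip, in which transcripts carry a unique molecular identifier (UMI), gave 1 library of cardiomyocytes and 1 library of fibroblasts. All cells were primary and unmodified as far as the labels state. Per the methods of the study, the fibroblasts had been passaged in culture and were plated in larger number when adult, and cells were sorted after co-culture, while the labels describe separation by centrifugation. The wells of the cardiomyocytes library were named NFNCM, AFNCM or NCM0, and those of the fibroblasts library NF, AF, NF0 or AF0, each name split further into numbered sets of wells. What the 0 and the numbers stand for is not stated in the labels, and the names are used here as they stand.

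Bulk libraries held between 9278909 and 12088577 counts. The spread of replicates exceeded that of counting alone, by a chi-square over its degrees of freedom of 9.17 for imCM-NF and 9.07 for imCM-AF. Whether they came from separate cultures is not stated, so p-values measure only the spread between these libraries. Bulk levels in CPM are counts per 1000000 counts of the tested genes of a library, with TMM scaling for composition. All 10 cardiomyocyte markers were detected in bulk, and their summed level was 32440 and 23690 CPM in imCM-NF against 31410 and 34630 CPM in imCM-AF. The summed level of 10 fibroblast markers was 15490 and 17020 CPM in imCM-NF against 10820 and 8564 CPM in imCM-AF, so fibroblast transcripts were present in every cardiomyocyte library, at a higher summed level in imCM-NF. In bulk, fewer cells of a type and less RNA per cell cannot be told apart. Of the single wells, 2247 of 2462 were kept, and the median well held 18238 UMIs of cardiomyocytes or 27809 of fibroblasts.

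Promoter sequences of 3 of these genes are shown, because the connexins Gja1 and Gja5 stood far apart in level in cardiomyocyte wells and Dsp had the largest bulk log2 fold change of the 10. Each is the 250 bases before the transcription start, 5′ to 3′ on the strand of the gene, from RefSeq on GRCm38.p6 (the assembly that mm10 names). Capitals mark matches on either strand to motifs, which were the TATA box written TATAAA, the GC box written GGGCGG, the AP-1 motif written TGACTCA, the GATA motif written AGATAA, the NKX2-5 motif written TNAAGTG and the T-box element written AGGTGT. 
Gja1, chr10:56377050-56377299, plus strand: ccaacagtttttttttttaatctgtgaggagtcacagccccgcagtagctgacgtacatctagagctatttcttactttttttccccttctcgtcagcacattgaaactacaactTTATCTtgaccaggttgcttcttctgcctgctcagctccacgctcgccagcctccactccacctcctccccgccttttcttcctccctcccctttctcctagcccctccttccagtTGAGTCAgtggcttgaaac
Gja5, chr3:97032152-97032401, plus strand: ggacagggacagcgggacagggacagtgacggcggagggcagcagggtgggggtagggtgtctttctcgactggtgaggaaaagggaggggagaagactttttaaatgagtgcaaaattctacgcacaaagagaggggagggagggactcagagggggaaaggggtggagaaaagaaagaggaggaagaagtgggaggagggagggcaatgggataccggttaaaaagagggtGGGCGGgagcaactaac
Dsp, chr13:38151044-38151293, plus strand: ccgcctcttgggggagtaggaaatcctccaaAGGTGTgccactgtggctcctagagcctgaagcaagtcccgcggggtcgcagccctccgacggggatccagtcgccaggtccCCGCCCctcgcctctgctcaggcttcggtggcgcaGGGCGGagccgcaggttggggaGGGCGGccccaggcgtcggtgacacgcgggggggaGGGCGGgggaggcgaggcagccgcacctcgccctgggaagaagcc
The Gja1 window held 1 AP-1 match, 13 to 19 bases before the RefSeq start, and 1 GATA match. Of the 20-base words after that start, 1 was found in a GENCODE transcript for Gja1, against 17 for Gja5 and 31 for Dsp, so the distance from the start of Gja1 is uncertain. The Gja5 window held 1 GC box match and the Dsp window 4 of them together with 1 T-box element match. Of 32851 RefSeq promoter windows of the same length, 4.46% held an AP-1 match, 9.99% a GATA match, 32.7% a GC box match, 11.8% a T-box element match, 12.4% a TATA box match and 10.1% an NKX2-5 match. RefSeq promoters were matched for 6 of the 10 genes. A match describes letters only and is not evidence of binding.

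In bulk, the level per kilobase of exon separated the 10 genes into a high and a low tier. In imCM-NF, Jup stood at 67.4 ± 9.05 CPM per kb (SD, n = 2), Gja1 at 67.2 ± 13.8, Cdh2 at 64.1 ± 5.96, Pkp2 at 50.2 ± 10.3 and Dsp at 41.0 ± 10.3 CPM per kb. Each of these differed from its neighbour in the order by less than the summed SDs of the pair. Tjp1 followed at 13.7 ± 0.263 CPM per kb, Gja5 stood at 7.50 ± 0.455, Dsg2 at 7.43 ± 1.89 and Ctnna3 at 1.71 ± 0.323 CPM per kb, and Gjc1 lay between Tjp1 and Gja5, with 11.3 and 10.7 CPM per kb in its replicates. Gja5 and Dsg2 could not be ordered. Lengths were merged exons of GENCODE M21, while the authors counted on RefSeq genes, so the levels per kb are approximate. In imCM-AF, Gja1 was at 87.7 ± 10.4 and Dsp at 60.1 ± 3.68 CPM per kb, and Gja1 then led the order.

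imCM-AF was then compared with imCM-NF, to ask which junction genes differ with the age of the fibroblasts. Calls required an adjusted p below 0.05 together with a log2 fold change of more than 0.58 in size (edgeR quasi-likelihood test, Benjamini-Hochberg adjustment over 14041 genes). None of the 10 genes was called, and 0 were called by DESeq2 or limma-voom, while 11.1% of all tested genes were called in either direction. At an adjusted p under 0.05 without the fold threshold, 4 of 10 were higher in imCM-AF (Gjc1, Dsp, Dsg2 and Ctnna3) and 0 lower, against 12.5% of all genes higher and 14.5% lower. An unadjusted p under 0.05 was reached by 5 of 10, all higher in imCM-AF, against 18.9% of all genes higher and 20.4% lower. The libraries of both groups did not overlap for 6 of the 10, all higher in imCM-AF, against 32.1% of all genes higher without overlap and 33.8% lower. The median log2 fold change of the 10 genes was 0.26, and that of all tested genes 0.0011.

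Gja1 encodes connexin 43, the main gap junction protein of ventricular muscle (Entrez 14609, chromosome 10, 56377300 to 56390419, GRCm38). Its level was 789 and 589 CPM in imCM-NF libraries, against 824 and 974 CPM in imCM-AF libraries. The groups did not overlap, but the lower imCM-AF library lay nearer to the higher imCM-NF library than the imCM-NF libraries lay to each other. The log2 fold change was 0.38 ± 0.15 (SE, n = 2 per group, edgeR adjusted p = 0.0659), short of both thresholds.

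Gjc1 encodes connexin 45, known from the conduction system and the embryonic heart (Entrez 14615, chromosome 11, 102799477 to 102819686). It had 56.7 and 53.5 CPM in imCM-NF libraries, against 66.9 and 71.4 CPM in imCM-AF libraries. The groups were well apart relative to their spread, and the log2 fold change, 0.33 ± 0.10 (edgeR adjusted p = 0.0166), was below the fold threshold. Gja5 encodes connexin 40, the gap junction protein of atrial muscle, the conduction system and arterial endothelium (Entrez 14613, chromosome 3, 97032402 to 97053634). With 44.9 and 41.2 CPM in imCM-NF libraries, against 42.9 and 44.5 CPM in imCM-AF libraries, its libraries were interleaved and the log2 fold change was 0.03 ± 0.10 (edgeR adjusted p = 0.881).

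Cdh2 encodes N-cadherin, which joins the adherens junctions of neighbouring cells (Entrez 12558, chromosome 18, 16588877 to 16809246). It had 551 and 483 CPM in imCM-NF libraries, against 514 and 545 CPM in imCM-AF libraries, so that both imCM-AF libraries lay between the imCM-NF libraries (log2 fold change 0.03 ± 0.12, edgeR adjusted p = 0.864). Ctnna3 encodes alphaT-catenin, which links cadherins to actin and to plakophilin at the disc (Entrez 216033, chromosome 10, 63430098 to 65003667). It was the lowest of the 10 genes, with 14.0 and 10.7 CPM in imCM-NF libraries, against 15.3 and 18.4 CPM in imCM-AF libraries (log2 fold change 0.46 ± 0.16, edgeR adjusted p = 0.0428).

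Among the desmosomal genes, the largest difference was that of Dsp, which encodes desmoplakin, the link from the desmosome to intermediate filaments (Entrez 109620, chromosome 13, 38151294 to 38198577). Dsp had 467 and 326 CPM in imCM-NF libraries, against 555 and 606 CPM in imCM-AF libraries. The groups did not overlap, and the log2 fold change was 0.55 ± 0.14 (edgeR adjusted p = 0.00941), just under the fold threshold. Dsg2 encodes desmoglein 2, the desmosomal cadherin of the heart (Entrez 13511, chromosome 18, 20558074 to 20604526). It had 72.5 and 50.4 CPM in imCM-NF libraries, against 77.9 and 90.7 CPM in imCM-AF libraries, which gave 0.47 ± 0.13 as its log2 fold change (edgeR adjusted p = 0.0148).

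The plaque proteins plakophilin 2 and plakoglobin connect desmosomal cadherins to desmoplakin, and their genes, unlike Dsp and Dsg2, had an adjusted p over 0.05. Pkp2 (Entrez 67451, chromosome 16, 16213345 to 16272712) was measured at 309 and 230 CPM in imCM-NF libraries, against 283 and 319 CPM in imCM-AF libraries, with overlapping groups (log2 fold change 0.16 ± 0.13, edgeR adjusted p = 0.366). Jup (Entrez 16480, chromosome 11, 100368856 to 100397839) was measured at 475 and 392 CPM in imCM-NF libraries, against 418 and 423 CPM in imCM-AF libraries, and was the only one of the 10 with a negative log2 fold change (-0.04 ± 0.12, edgeR adjusted p = 0.821), which became 0.00 without composition scaling and 0.10 without imCM-NF replicate 1. Tjp1 encodes ZO-1, a scaffold that binds connexin 43 at the gap junction edge (Entrez 21872, chromosome 7, 65296165 to 65527850). It had 109 and 106 CPM in imCM-NF libraries, against 121 and 123 CPM in imCM-AF libraries, a small difference between tight groups (log2 fold change 0.18 ± 0.09, edgeR adjusted p = 0.153).

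**Figure D1:**
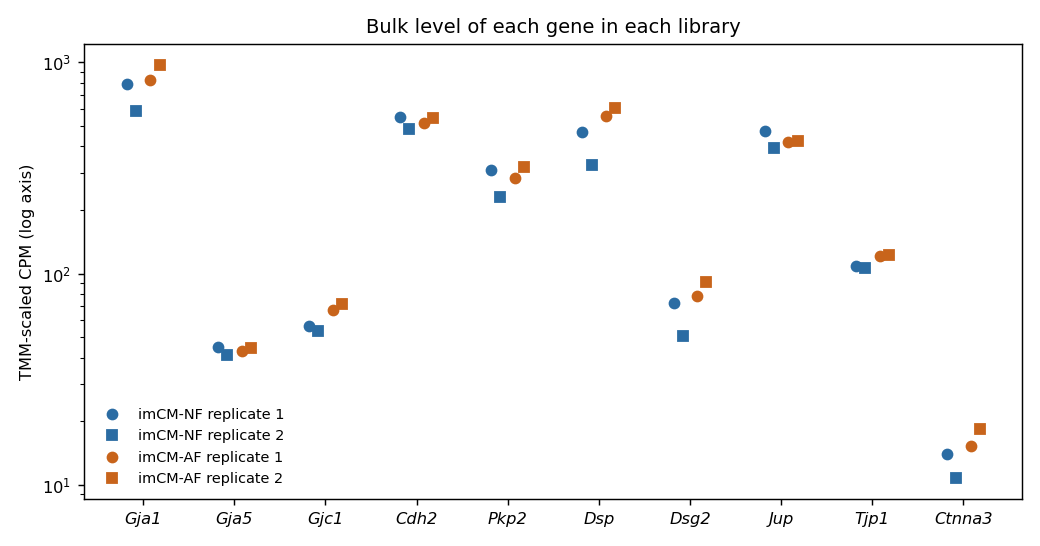
TMM-scaled CPM of the 10 genes (log axis) in the 4 bulk libraries, with imCM-NF in blue and imCM-AF in orange and circles and squares for replicates 1 and 2. The blue square, imCM-NF replicate 2, was the lowest of the 4 libraries for all 10 genes.

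The plot of CPM by library shows that imCM-NF replicate 2 was lowest for 10 of the 10 genes. The same library had the lowest summed level of the cardiomyocyte markers (23690 CPM) and the highest summed level of the fibroblast markers (17020 CPM), and the part of these in the differences was not tested. Without that library, 0 of the 10 genes had an adjusted p under 0.05 and the log2 fold change of Dsp was 0.32. Without imCM-NF replicate 1, Gja1, Dsp, Dsg2 and Ctnna3 were called, with log2 fold changes of 0.61, 0.83, 0.74 and 0.65. Without imCM-AF replicate 1, 3 were called (Dsp, Dsg2 and Ctnna3), and without imCM-AF replicate 2 none. In such fits the lone library of a group is assumed to vary like the others. When the libraries were scaled to the cardiomyocyte marker list, which moved the median log2 fold change of all genes to -0.27, the median of the 10 genes became -0.01 and 0 had an adjusted p under 0.05. Under that scaling Dsp, Dsg2, Ctnna3, Gja1 and Gjc1 had log2 fold changes of 0.32, 0.23, 0.20, 0.14 and 0.06, Gja5, Cdh2, Pkp2 and Tjp1 turned negative, and 9 of the 10 lay above the shifted median of all genes.

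**Figure D2:**
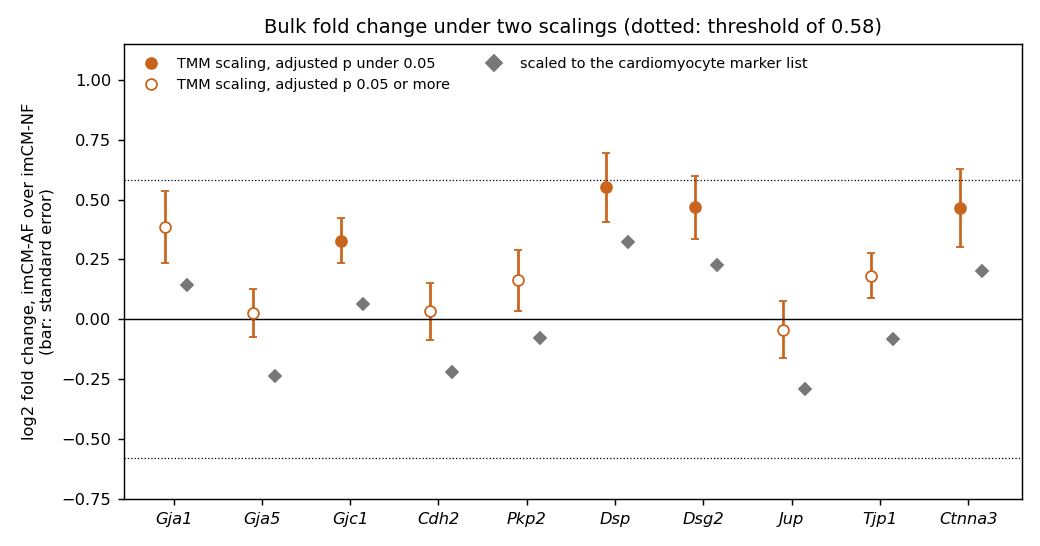
Log2 fold change of each gene in bulk, imCM-AF over imCM-NF. Orange circles with standard error bars are from TMM scaling, filled where the adjusted p was under 0.05 (Gjc1, Dsp, Dsg2 and Ctnna3), and grey diamonds are from scaling to the cardiomyocyte markers. All circles lie within the dotted thresholds of 0.58, and every diamond lies below its circle.

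Other genes of these structures were followed in lists of 64 genes, of which 39 were tested in bulk and 7 called, 4 higher and 3 lower in imCM-AF, where 6.15% of all tested genes were called higher and 4.99% lower. In the list of other connexins and pannexins, of which 5 were tested, Gja4, which encodes connexin 37 of endothelium, fell from 34.7 and 35.4 CPM to 20.2 and 18.1 CPM (log2 fold change -0.88 ± 0.12, edgeR adjusted p = 4.01e-05). Among other adherens junction and desmosome genes 2 of 13 were called, with a fall of Pkp1, an epidermal plakophilin (log2 fold change -1.70 ± 0.26), and a rise of the plakin gene Ppl from 0.557 and 0.909 CPM to 3.47 and 1.93 CPM. Ppl fell below the expression filter when an imCM-AF library was left out. Their abundant members, such as Ctnna1 and Des, were not called. Among 17 other disc-associated genes 2 rose. These were Kcnj2, the channel of the inward rectifier potassium current (log2 fold change 0.69 ± 0.14, edgeR adjusted p = 0.00156), and Lmo7, which is known to bind to the adherens junction (0.61 ± 0.14, edgeR adjusted p = 0.00508). Both calls were lost when libraries were scaled to the cardiomyocyte markers (log2 fold changes of 0.42 and 0.38), and when replicate 2 of imCM-NF (0.61 and 0.36) or of imCM-AF (0.52 and 0.55) was left out. Lmo7 had 335 and 227 CPM in imCM-NF libraries, against 409 and 445 CPM in imCM-AF libraries. Of 4 tested other cadherins 1 was called, the endothelial Cdh5, at 354 and 368 CPM in imCM-NF libraries, against 217 and 214 CPM in imCM-AF libraries (log2 fold change -0.75 ± 0.10). The endothelial marker list moved with Gja4 and Cdh5, since all 8 of its genes had negative log2 fold changes and 4 were called. Its summed level was 594 and 615 CPM in imCM-NF libraries, against 424 and 392 CPM in imCM-AF libraries. The median log2 fold change was 0.24 in the connexin list, 0.07 in the adherens junction and desmosome list, 0.26 in the disc-associated list and -0.24 in the cadherin list.

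In single wells UMIs were summed over the wells of a name and given per 1000000 UMIs of those wells (CPM). Their exact 95% Poisson intervals cover counting error only. There is 1 library per kind of cell, so these comparisons carry no test. All 10 genes were detected in cardiomyocyte wells. Wells were read against their markers first. Cardiomyocyte markers exceeded fibroblast markers in 97.3% of 258 NCM0 wells, 91.2% of 523 NFNCM wells and 81.7% of 515 AFNCM wells, with exact binomial 95% intervals of 94.5 to 98.9%, 88.4 to 93.5% and 78.1 to 85.0%. AFNCM thus held more wells in which fibroblast markers equalled or exceeded cardiomyocyte markers. The fibroblast markers summed to 8649 CPM in AF wells and 3060 CPM in NF wells, so these shares are not amounts of fibroblast content. For the same reason the match by markers need not act alike in AFNCM and NFNCM. Some ratios are given also for the wells whose markers matched their library. In the fibroblasts library the cardiomyocyte markers were the higher in 19.9% of 256 NF wells and 14.7% of 306 NF0 wells, against 2.28% of 219 AF wells and 0.588% of 170 AF0 wells. The number of wells within 2-fold of the boundary ranged from 3 in AF0 to 86 in NF0. The chips shared 269 well barcodes, which are positions on the chip and not shared cells.

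Gja1 was the most abundant of the 10 in cardiomyocyte wells, with 555 CPM in NCM0 (95% interval 536 to 575), 449 CPM in NFNCM (437 to 461) and 458 CPM in AFNCM (447 to 469). In NCM0 the numbered sets had 557 and 554 CPM, in NFNCM 416, 491 and 436 CPM, and in AFNCM 461, 522 and 395 CPM. The AFNCM and NFNCM sets overlapped, while both NCM0 sets lay above all of them. In wells whose markers matched, the AFNCM sets reached from 488 to 601 CPM and overlapped those of NCM0 (576 and 578 CPM), and the ratio of AFNCM to NCM0 moved from 0.825 to 0.943. In fibroblast wells Gja1 was at 64.2 CPM in NF, 99.7 in NF0, 86.0 in AF and 69.8 in AF0. It was 5.32-fold higher in AFNCM than in AF wells, and 6.94-fold in wells whose markers matched their library. Per 1000 UMIs of Tnnt2, the gene of cardiac troponin T, there were 37.4 Gja1 UMIs in NF wells and 45.9 in NF0 wells, within the 35.2 to 48.3 of the cardiomyocyte wells, but 393 in AF wells and 479 in AF0 wells. In fibroblast wells whose markers matched, Gja1 was at 39.9 CPM in NF, 47.6 in NF0, 78.5 in AF and 68.2 in AF0. The source of the Gja1 UMIs in fibroblast wells was not tested.

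Gja5 behaved unlike the other connexins. It was rare in cardiomyocyte wells, at 5.15 CPM in NCM0 (30 UMIs), 3.14 CPM in NFNCM (41 UMIs) and 14.2 CPM in AFNCM (214 UMIs). The 3 AFNCM sets had 22.1, 9.40 and 13.9 CPM and the 3 NFNCM sets 1.01, 2.67 and 5.41 CPM, so the sets did not overlap. The ratio of AFNCM to NFNCM was 4.52-fold (95% counting interval 3.22 to 6.48), a log2 ratio of 2.18 that became 2.30 in wells whose markers matched and 1.22 when every well weighed equally. No Gja5 UMI was seen in AF or AF0 wells, and AFNCM wells were at least 41.5-fold higher than AF wells if AF is set at 3 UMIs over its 219 wells. Without thinning 10.5% of AFNCM wells had a Gja5 UMI, against 3.06% of NFNCM wells, at median depths of 19709 and 18770 UMIs. Wells with at least 5000 UMIs were also thinned to that number, which left out 77 AFNCM and 113 NFNCM wells. The shares were then 3.65% (2.10 to 5.86%) of 438 wells and 1.71% (0.689 to 3.49%) of 410 wells, near the limit of 1 UMI. Their intervals overlap, and the share was 0.448% in NF wells. In bulk the same gene had no such difference.

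Gja5 had a higher CPM in wells rich in the atrial markers Sln, Myl7, Myl4 and Nppa than in other wells with cardiomyocyte markers. This split was chosen after the values had been seen. Of 1149 wells with cardiomyocyte markers, 46 had an atrial marker sum over 0.5 of the cardiomyocyte marker sum, and 37 wells lay within 2-fold of that limit. In these wells Gja5 was at 137 CPM in AFNCM (114 to 164, 21 wells), 15.9 CPM in NFNCM (7.28 to 30.2, 18 wells) and 52.5 CPM in NCM0 (24.0 to 99.7, 7 wells). In the other wells with cardiomyocyte markers it was at 8.21, 2.90 and 3.88 CPM. In AFNCM, NFNCM and NCM0 its UMIs numbered 118, 9 and 9 in atrial-rich wells and 92, 32 and 21 in the others. The atrial-rich wells were of similar number in AFNCM and NFNCM, and Gja5 was detected in 15 of 21 and 6 of 18 of them. The atrial-rich wells were low in Gjc1, with 44.2 CPM in AFNCM and 54.8 CPM in NFNCM against 127 and 114 CPM in the other wells. Gja1 did not separate them in one direction, with 605 against 540 CPM in AFNCM and 437 against 501 CPM in NFNCM. In NCM0 it was at 933 CPM (794 to 1090, 7 wells) against 566 CPM (546 to 586). Of the 285 Gja5 UMIs of the library, 87 were in 5 wells.

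**Figure D3:**
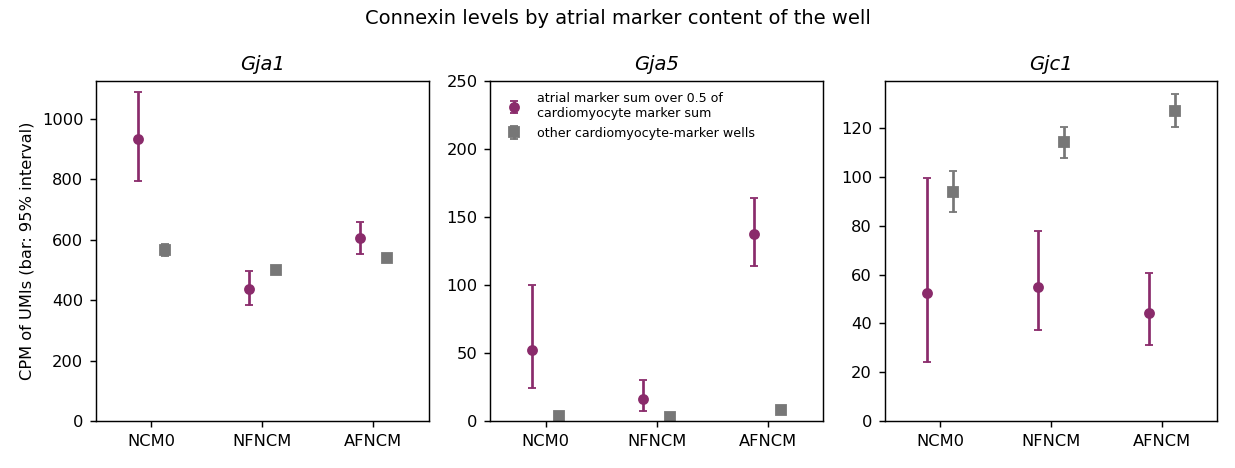
CPM of the connexins Gja1, Gja5 and Gjc1 in cardiomyocyte-marker wells, with exact 95% Poisson intervals, split by the ratio of atrial to cardiomyocyte markers. Gja5 was higher in the atrial-rich wells (purple) in all 3 names, with 137 CPM in AFNCM, and Gjc1 was lower there in all 3.

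Gjc1 was at 90.7 CPM in NCM0, 103 CPM in NFNCM and 106 CPM in AFNCM, with sets of 103, 98.7 and 107 CPM in NFNCM and 114, 125 and 83.2 CPM in AFNCM. The AFNCM sets spanned those of NFNCM. Gjc1 was also present in fibroblast wells, at 45.0 CPM in NF and 46.7 CPM in AF, but at 30.2 and 14.2 CPM in NF0 and AF0. In AF wells it was 3.29-fold higher than in AF0 wells, and in NF wells 1.49-fold higher than in NF0.

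Cdh2 was not a gene of cardiomyocyte wells alone. It had 426 CPM in NCM0, 408 CPM in NFNCM and 325 CPM in AFNCM, while fibroblast wells held 289 CPM in NF, 419 in NF0, 365 in AF and 597 in AF0. The NFNCM sets had 397, 403 and 422 CPM and the AFNCM sets 317, 344 and 312 CPM, without overlap, and the AFNCM to NFNCM ratio was 0.797 (0.767 to 0.829). In wells whose markers matched it was 0.805. Ctnna3 had 2.52 CPM in AFNCM (38 UMIs) against 8.19 CPM in NFNCM (107 UMIs) and 4.46 CPM in NCM0 (26 UMIs), and its AFNCM sets (2.80, 1.06 and 3.74 CPM) lay under its NFNCM sets (5.82, 11.1 and 7.36 CPM). It had between 1 and 7 UMIs in each name of fibroblast wells. The log2 ratio of NFNCM to NCM0 for Ctnna3 was 0.88, but -0.37 when wells above the UMI limit were kept.

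Dsp and Pkp2 were far higher in cardiomyocyte than in fibroblast wells, while Jup was not set apart in every name. Dsp had 220 CPM in NCM0, 167 CPM in NFNCM and 145 CPM in AFNCM, against 19.7 CPM in NF and 5.81 CPM in AF. Its sets were 127, 187 and 181 CPM in NFNCM and 135, 162 and 134 CPM in AFNCM, which overlapped. The log2 ratio of AFNCM to NFNCM was -0.20 (-0.29 to -0.12), and -0.07 (-0.16 to 0.01) in wells whose markers matched. Pkp2 had 192, 160 and 134 CPM in NCM0, NFNCM and AFNCM and 5.06 and 9.23 CPM in NF and AF. Its AFNCM sets (152, 135 and 121 CPM) lay below those of NFNCM (159, 155 and 167 CPM), and came to overlap them in the wells whose markers matched.

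Jup had 62.7, 52.8 and 37.4 CPM in NCM0, NFNCM and AFNCM, with overlapping NFNCM sets (38.0, 48.4 and 69.7 CPM) and AFNCM sets (32.2, 44.5 and 33.7 CPM). In fibroblast wells Jup was at 13.8 CPM in NF and 9.68 CPM in AF, but at 32.7 CPM in NF0 and 26.8 CPM in AF0, and the higher NF0 set (39.8 CPM) exceeded the lowest NFNCM set and 2 of the AFNCM sets. Dsg2 had 38.0, 45.8 and 38.8 CPM, and was at 0.281 CPM in NF wells (2 UMIs) but 11.1 CPM in AF wells, where 97 UMIs lay in 8 of 219 wells. Tjp1 was of similar level in fibroblast and cardiomyocyte wells, with 45.5, 35.2 and 37.0 CPM in NCM0, NFNCM and AFNCM, 25.2 CPM in NF and 50.8 CPM in AF. Its AFNCM sets, at 34.2, 36.5 and 39.1 CPM, lay within the span of its NFNCM sets, at 36.2, 28.5 and 40.9 CPM.

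**Figure D4:**
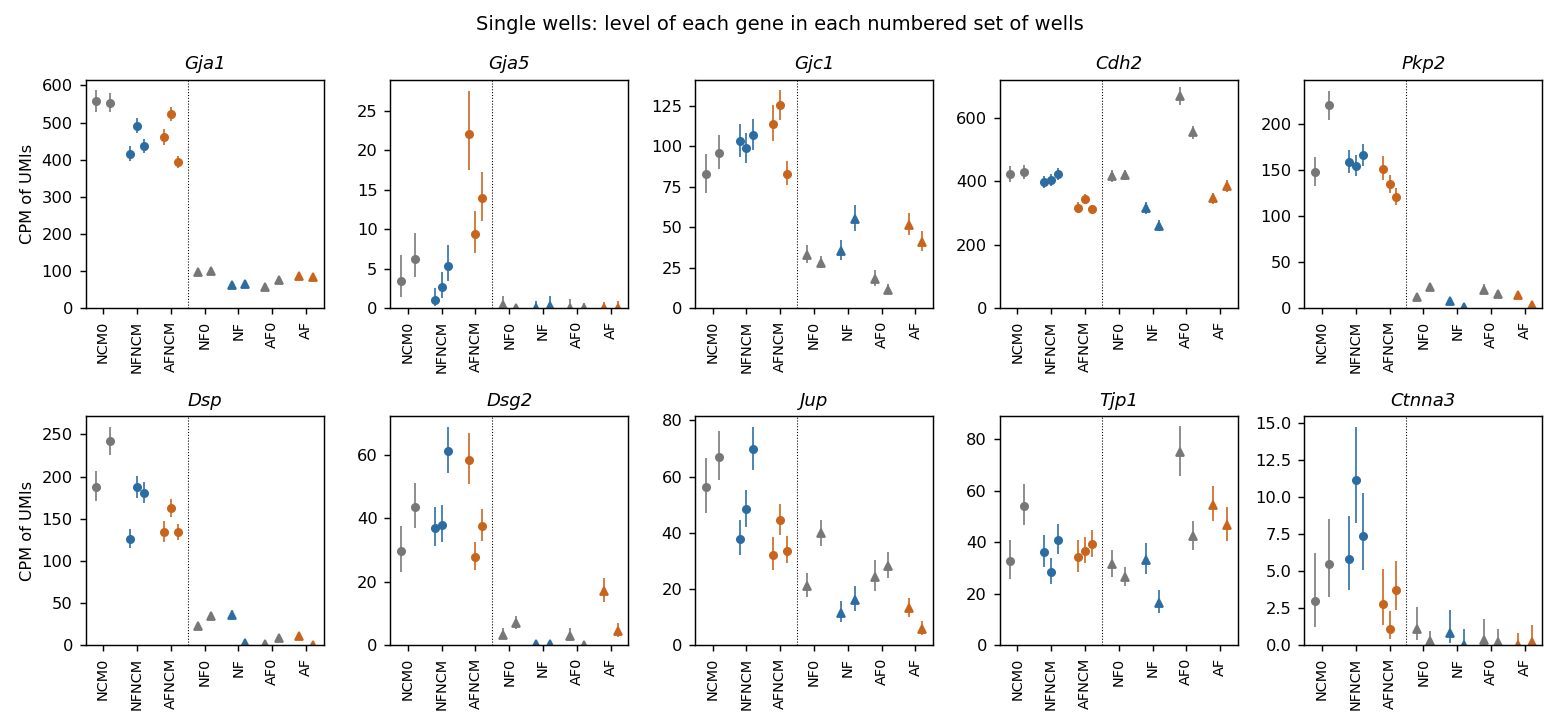
CPM of UMIs of each gene in each numbered set of wells, with exact 95% Poisson intervals. Circles left of the dotted line are sets of the cardiomyocytes library and triangles right of it sets of the fibroblasts library, with blue for NFNCM and NF, orange for AFNCM and AF and grey for names with a 0. Gja1, Pkp2 and Dsp fall to a low level right of the line, while Cdh2 and Tjp1 do not.

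Across all 10 genes, AFNCM wells had a higher CPM than NFNCM wells for 4 (Gja1, Gja5, Gjc1 and Tjp1) and a lower CPM for 6. Of the 9 with at least 10 CPM in either name, 1 was over 1.5-fold higher in AFNCM (Gja5) and 0 were over 1.5-fold lower, against 15.7% and 4.24% of 8416 genes. Gja5 met that limit through AFNCM alone (14.2 CPM, against 3.14 CPM in NFNCM), so it could be counted only as higher. The 8416 genes of the background were admitted by the same limit. The median log2 ratio was -0.22 over the 10 genes and 0.11 over those genes. In wells whose markers matched the median was -0.11, and it was 0.01 when UMIs were scaled to the cardiomyocyte marker list. Fibroblast marker level and endothelial marker level were both higher in AFNCM wells, at 2562 and 222 CPM against 1049 and 59.0 CPM in NFNCM wells, and their part in the ratios was not tested. In bulk both lists went the other way, with higher summed levels in the imCM-NF libraries than in the imCM-AF libraries. Weighting wells equally turned Gja1 from a log2 ratio of 0.03 to -0.35 and Gjc1 from 0.04 to -0.14. Of the 4 genes with an adjusted p under 0.05 in bulk, all higher in imCM-AF, Dsp, Dsg2 and Ctnna3 had lower CPM in AFNCM than in NFNCM wells. The sets of Dsp and Dsg2 overlapped. In wells whose markers matched, their log2 ratios were -0.07 (-0.16 to 0.01) and -0.14 (-0.31 to 0.03), with intervals that include 0. The widest gap was that of Ctnna3, with a bulk log2 fold change of 0.46 and a single-well log2 ratio of -1.70 from sets that did not overlap. The difference between the bulk and single-well values was not tested.

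**Figure D5:**
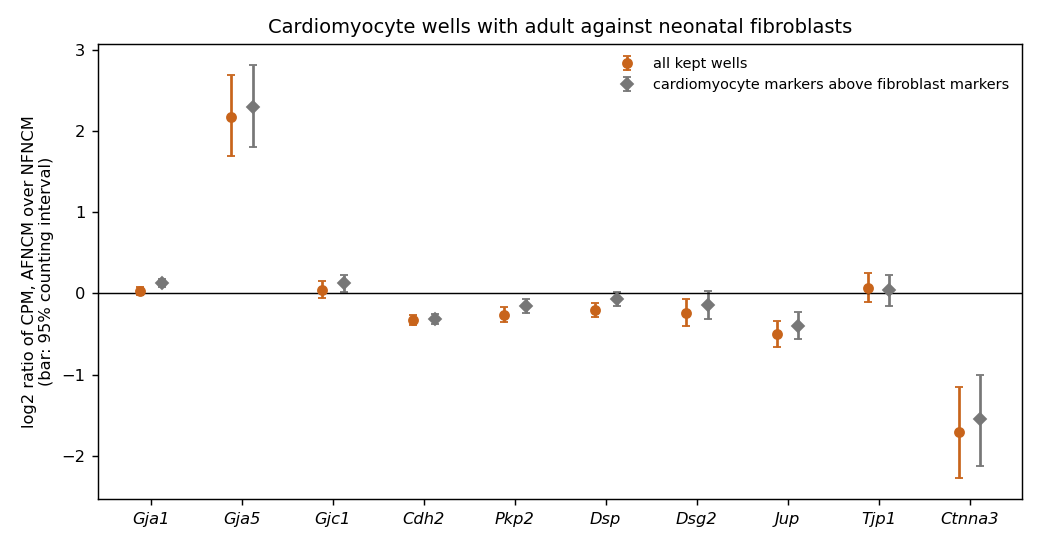
Log2 ratio of CPM, AFNCM over NFNCM, for each gene with exact 95% conditional binomial intervals that cover counting error only. Orange circles are all kept wells and grey diamonds wells with cardiomyocyte markers above fibroblast markers. Gja5 stands at 2.18 and Ctnna3 at -1.70, and the other genes lie between -0.50 and 0.13.

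Compared with NCM0 wells, NFNCM wells were lower for 7 of 10 genes, with 0 of the 8 at 10 CPM or more past 1.5-fold in either direction (background 8.28% higher and 20.3% lower of 8433 genes). AFNCM wells were lower than NCM0 for 7 of 10, and past 1.5-fold were Gja5 (2.75-fold higher), Dsp (0.657-fold, interval 0.613 to 0.705) and Jup (0.596-fold, 0.522 to 0.682), against 17.4% higher and 16.8% lower of 8859 genes. Gja5 again met the limit of 10 CPM through AFNCM alone (14.2 CPM, against 5.15 CPM in NCM0). The median log2 ratio of NFNCM to NCM0 was -0.253 over the 10 genes and -0.09 over the background genes. For AFNCM to NCM0 these medians were -0.344 and 0.011. In wells whose markers matched, Dsp and Jup came to 0.777 and 0.671 and no longer passed 1.5-fold. Compared with the fibroblast wells of the corresponding name, NFNCM was over 1.5-fold higher than NF for 6 of 8 genes (background 20.3%) and AFNCM over AF for 7 of 9 (background 17.5%), and in wells whose markers matched for 7 of 8 (22.3%) and 7 of 9 (18.8%). With all kept wells the exceptions in both were Cdh2 and Tjp1. Of the counted genes, Pkp2 and Dsg2 in NF and Gja5, Pkp2, Dsp and Jup in AF were under 10 CPM there. They met the limit only through the cardiomyocyte wells. In wells whose markers matched, Jup in NF (9.75 CPM) did so too, and Cdh2 passed 1.5-fold narrowly over NF (1.52-fold). The kind of cell and the chip cannot be told apart in these 2 comparisons.

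Within the fibroblasts library, AF wells were over 1.5-fold higher than NF wells for Dsg2 and Tjp1 and lower for Dsp (background 26.0% higher and 12.5% lower of 9010 genes). Dsg2 met the limit of 10 CPM through AF alone (11.1 CPM, against 0.281 CPM in NF). Dsp met it through NF alone (19.7 CPM, against 5.81 CPM in AF). Tjp1 had 54.5 and 46.7 CPM in the AF sets and 33.2 and 16.4 CPM in the NF sets, a ratio of 2.02 (1.69 to 2.41). It was also higher in AF0 than NF0 wells, by 1.93-fold. The Dsp difference rested on 1 set, since the NF sets had 35.6 and 2.35 CPM and the AF sets 10.3 and 0.725 CPM. Dsg2 had 17.0 and 4.35 CPM in the AF sets and 0.270 and 0.294 CPM in the NF sets.

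From the listed junction genes outside the 10, the 3 highest of each list in cardiomyocyte wells are given, of which those over 100 CPM were Ctnna1, which encodes alphaE-catenin (1347 CPM), the popeye gene Popdc2 (299.6 CPM), the intermediate filament gene Des (219 CPM), Lmo7 (195 CPM), Sorbs2 (185 CPM), the desmosomal gene Perp (160 CPM) and Cdh13 (108 CPM). Other connexins and pannexins were scarce, with Panx1 at 5.83 CPM, Gja3 at 3.24 CPM and Gja4 at 2.00 CPM. Perp followed the order of Dsp, Pkp2 and Jup, at 273 CPM in NCM0, 175 CPM in NFNCM and 103 CPM in AFNCM, and Lmo7 did so too, at 277, 212 and 150 CPM, although in bulk Lmo7 was higher in imCM-AF. Gja4 had 0 UMIs in NCM0 wells and 23.2 CPM in AF0 wells.

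The genes whose level over the 16 numbered sets was most like that of Gja1, by Pearson correlation of log2(CPM + 10) among 3157 genes, were Coq8a (r = 0.99), Ndrg2 (0.99), Art3 (0.99), Apobec2 (0.98) and Ndufa11b (0.98). Among the 10, the correlation with Gja1 was 0.97 for Pkp2, 0.94 for Dsp, 0.88 for Gjc1 and -0.14 for Cdh2, and the other 5 were too low to be ranked. The sets share 2 libraries and fall into cardiomyocyte and fibroblast wells, so these values describe that division.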

How the data were processed

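Bulk RNA-Seq (imCM-NF and imCM-AF, 2 libraries each) and single-well RNA-Seq (1 library of cardiomyocytes, 1 of fibroblasts) were analysed. The deposited bulk values are raw counts per Entrez gene, which the authors made by aligning reads to mm10 with the R version of Subread and counting uniquely placed reads with featureCounts on its built-in RefSeq genes. The deposited single-well values are UMI counts per Ensembl gene and well, which the authors made with STAR 2.5.2b on mm10 and featureCounts (command line Subread 1.4.6-p1). The sources do not say if counting used strand, and overlapping or antisense genes cannot then be told apart. The STAR and Subread versions are from the submitters' processing notes, and their roles from the methods of the study. Spike-in columns (85 and 79) and mitochondrial genes were left out of totals, and a report table gave each well its name and share of aligned reads.

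Symbols were matched by Entrez identifier to RefSeq, without a match for 1904 of 27179 rows (3.52% of counts). Genes with a CPM over 1 in at least 2 libraries were tested (14041 genes) with edgeR 4.0.16 in R 4.3.3, TMM scaling and group as the only term. The SE was derived from the log2 fold change and the F statistic. In data simulated for this comparison with 13879 genes, edgeR recovered 93 of 99 genes changed by 1.5 on the log2 scale and 72 of 100 changed by 0.8, with 3 false calls. DESeq2, limma-voom 3.58.1, other scalings, filters and thresholds, the replicate number as a block and each library left out were the alternatives.

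Kept wells had 500 genes or more, over 50% of reads aligned and UMI totals within 2 SD of the mean (under 129577), as in the methods of the study. The study also left out co-cultured cells whose type differed between sorting and clustering, and that step was not applied here. No doublet caller was run, since wells with single live cells had been selected by imaging. The 10 negative control wells held 3 UMIs of the 10 genes. Ratios carry exact conditional binomial intervals, and all intervals and the floor of 3 UMIs cover counting error only. Alternatives were no UMI limit, marker-matched wells, equal weight of wells, thinning to 5000 UMIs (seed 5) and scaling to cardiomyocyte markers. Wells under 5000 UMIs were left out of the thinning.

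The genes and lists were chosen with earlier results of these data known. By the rule for named genes, all 10 genes are named, with the called genes of each list by largest rise and fall (up to 3 each), the 3 list genes highest in cardiomyocyte wells, marker genes and the 5 genes most like Gja1 (mean CPM of at least 50). The 7 lists of markers are cardiomyocyte, atrial, fibroblast, endothelial, macrophage, smooth muscle and epicardial. In bulk the macrophage, smooth muscle and epicardial lists had 2 of 7, 1 of 6 and 1 of 3 tested genes called, all lower in imCM-AF, and 1 of 4 atrial genes was called (Nppa, lower). The values of 1 called gene of these lists are not reported here.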

Additional observations from a re-analysis of the deposited data

Results flagged for a closer look

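The difference between wells of adult and neonatal fibroblasts went in opposite directions for 2 genes in the names with and without a 0. Gja1 was higher in AF than in NF wells (log2 ratio 0.42, with 88.4 and 83.4 CPM in the AF sets and 62.0 and 66.7 CPM in the NF sets) and lower in AF0 than in NF0 wells (log2 ratio -0.51, with 57.9 and 77.0 CPM against 98.0 and 101 CPM). Dsg2 was higher in AF than in NF wells (log2 ratio 5.30, from 97 UMIs in 8 of 219 wells against 2 UMIs) and lower in AF0 than in NF0 wells (log2 ratio -2.38, from 9 UMIs against 68). The 2 genes were picked by rule, for opposite directions and for numbered sets that did not overlap in either comparison. That every numbered set went the way of its name was thus fixed in advance. The share of all genes meeting the rule is not given here. For Dsg2 the AF0 and NF0 sets were close, at up to 2.846 CPM in AF0 and from 3.275 CPM in NF0. The difference itself was not tested, since the sets come from 1 library. Cardiomyocyte markers summed to 3220 CPM in NF and 4504 CPM in NF0 wells, against 586 CPM in AF and 235 CPM in AF0 wells, and their part in these ratios was not tested. Wells kept by their markers gave another picture for Gja1, which was then higher in both (0.98 for AF over NF and 0.52 for AF0 over NF0), with overlapping AF0 and NF0 sets. For Dsg2 in those wells the log2 ratios were 6.04 and -1.29, and the AF0 and NF0 sets overlapped as well.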

How the results depend on the processing

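The count of the 10 genes called in bulk was 1 without composition scaling (Dsp), 4 by adjusted p alone, and between 0 and 4 with a library left out. With the replicate number as a block 0 were called and 2 had an adjusted p under 0.05 (Dsp and Dsg2), and among the listed genes 7 were called, as without it. Whether same-numbered libraries belong together is not stated. Their deviations correlated at -0.176, a value that is the same for both numbers by construction with 2 libraries per group. It cannot show whether they were prepared together. With the crossed pairing, added after the data had been seen, 0 of the 10, 8 of the listed genes and 1668 of all genes were called, against 1430 of all genes with the replicate block and 1564 without. The count of listed genes called, 7, became 12 by adjusted p alone, 3 at a log2 threshold of 1, and between 4 and 13 with a library left out. Scaling to the cardiomyocyte markers moved the median of the 10 from 0.256 to -0.006 and left 744 of all genes called, 190 higher and 554 lower, against 864 and 700. It reversed Gja5 (-0.237), Cdh2 (-0.221), Pkp2 (-0.076) and Tjp1 (-0.082). Without imCM-NF replicate 2 Gja5 (-0.031), Cdh2 (-0.051) and Pkp2 (-0.026) reversed, without imCM-AF replicate 2 Cdh2 (-0.003), without imCM-NF replicate 1 Jup (0.098), and without composition scaling Jup (0.002). With a library left out, the log2 fold change ranged from -0.031 to 0.083 for Gja5, from -0.051 to 0.13 for Cdh2, from -0.026 to 0.387 for Pkp2 and from -0.167 to 0.098 for Jup. The reversed values all had an adjusted p of at least 0.05, and the cause was not tested.

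In single wells the number of genes higher in AFNCM than NFNCM, 4, became 2 with equal weight of wells and 1 after thinning. The median log2 ratio of AFNCM to NFNCM, -0.22, became -0.427 with equal weight, -0.356 after thinning and 0.011 per cardiomyocyte marker UMI. That of NFNCM to NCM0 became -0.003 after thinning, and that of AFNCM to NCM0 -0.549 with equal weight and -0.06 per marker UMI. Ctnna3 reversed between NFNCM and NCM0 without the UMI limit (-0.371). All-gene counts were 1078 by DESeq2 and between 879 and 1929 with a library left out. With 2 libraries per group the SEs of the 10 log2 fold changes in bulk were between 0.09 and 0.16, and in single wells Gja5 and Ctnna3 rest on few UMIs.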
